A study of Mus musculus with 4 samples.

Results

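The translation initiation and elongation factors are the proteins that carry a ribosome onto an mRNA, find the start codon and move the ribosome along the reading frame. Their genes were taken by name from a table of FPKM values (reads normalised to transcript length and to library size), as every row whose symbol begins with Eif1 to Eif6, Eef1 or Eef2, leaving out the eIF2 kinases (Eif2ak) and the 4E transporter (Eif4enif). This gave 59 of the 18436 genes in the table, and none was chosen by its level or by its difference between genotypes. They were sorted by name into 11 groups that broadly follow role.

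The RNA came from Lgr5-GFP high cells, the stem cells at the base of intestinal crypts, sorted by flow cytometry from 2 Lgr5-WT and 2 Lgr5-CREPTKO mice on a C57BL/6 background. All 4 mice carried the Lgr5-EGFP-IRES-creERT2 allele, and the Lgr5-CREPTKO mice also carried CREPT fl/fl. To induce the recombinase, both genotypes were given 5 daily intraperitoneal doses of tamoxifen (1 mg each), and sorting took place on day 7. The study used mice of both sexes, aged 6 to 8 weeks, without giving the age or sex of each. The recombinase is made from the Lgr5 locus, so that deletion is limited to Lgr5-expressing cells and their descendants. CREPT, encoded by Rprd1b, is a protein that binds the C-terminal domain of RNA polymerase II, and the study asked what its loss does to intestinal stem cells.

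Initiation begins with a ternary complex of eIF2, GTP and the initiator tRNA on the small ribosomal subunit, held there with eIF1, eIF1A, eIF3 and eIF5. The eIF4F complex, made of the cap-binding protein eIF4E, the scaffold eIF4G and the helicase eIF4A, brings the mRNA, and eIF5B then joins the large subunit. The exchange factor eIF2B recharges eIF2 with GTP, a step blocked by the stress kinases, while the 4E-BPs hold back eIF4E until mTORC1 phosphorylates them. In elongation, eEF1A delivers aminoacyl-tRNA, eEF1B recharges eEF1A, eEF2 moves the ribosome by a codon, and eIF5A relieves stalls. In the intestinal crypt these factors serve some of the fastest dividing cells of the body.

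Between the genotypes only 1 translation factor gene was called at an adjusted p below 0.05. For 47 of the 56 genes tested the 95% interval of the log2 fold change lay within 0.5 of zero. Eef2kmt, which encodes the methyltransferase that modifies eEF2, was lower in Lgr5-CREPTKO cells, at 34.2% of the Lgr5-WT mean. No other factor gene passed the threshold in either direction. For the general machinery, including Eef1a1, Eef2, Eif5a and the subunits of eIF2 and eIF3 other than Eif3j2, the 95% interval of the log2 fold change lay within 0.5 of zero. Among genes of at least 10 FPKM the largest differences that missed the threshold were those of Eif4ebp2, Eif4g3, Eif2b5 and Eif4ebp3, which encode regulators and a scaffold of initiation.

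Of the 59 genes, 56 passed a filter of a mean of at least 0.5 FPKM and were tested with limma's moderated test on log2(FPKM + 0.5), with Benjamini-Hochberg adjustment over all 12621 genes tested. At an adjusted p below 0.05, 1 factor gene was called lower and 0 were called higher. Over all genes tested 337 (2.67%) were called lower and 52 (0.412%) higher, so that 1 call among 56 genes is near the background. With each library rescaled to the same total, that split was 243 lower against 85 higher. At an unadjusted p below 0.05, 8 factor genes were lower and 6 higher, against 15.2% and 9.27% of all genes. The median log2 fold change of the 56 was -0.04, beside -0.01 over all genes tested. Because these are bulk samples, fewer cells of a type and less RNA per cell cannot be told apart.

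Small differences could be bounded. The 95% interval of the log2 fold change lay within 1 of zero for 53 of the 56 genes and within 0.5 for 47. The exceptions to the wider bound were Eef2kmt and the weakly expressed Eif4e3 and Eif3j2. An absolute log2 fold change above 0.5 was seen for 2 factor genes, Eef2kmt and Eif4e3, against 13.9% of all genes tested. Among the 54 factor genes of at least 10 FPKM it was seen for Eef2kmt alone, against 7.87% of all genes at that level. In 19 factor genes both Lgr5-CREPTKO libraries lay below both Lgr5-WT libraries, against 31.0% of all genes, and in 13 they lay above, against 25.6%. In the remaining 24 the genotypes overlapped.

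**Figure D1:**
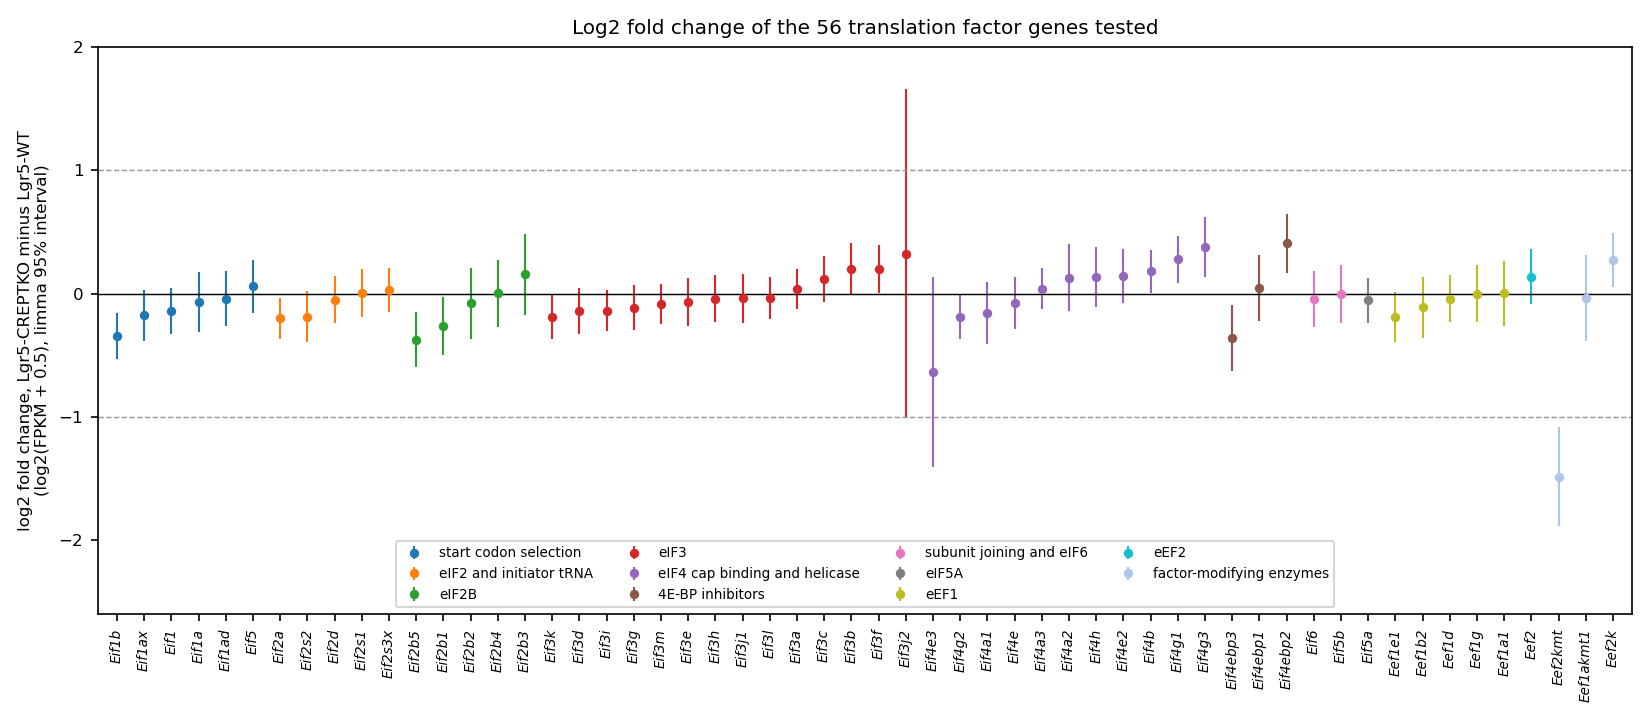
Log2 fold change (Lgr5-CREPTKO minus Lgr5-WT, on log2(FPKM + 0.5)) of the 56 translation factor genes tested, ordered within each factor group, with limma's 95% interval as bars and dashed lines at a change of 1. Eef2kmt lies alone at -1.49, while most other genes lie within 0.5 of zero.

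The check of the deleted gene went with the labels. Rprd1b stood at 17.7 and 18.1 FPKM in the Lgr5-WT libraries and at 6.65 and 7.36 in the Lgr5-CREPTKO libraries, a log2 fold change of -1.29 (limma adjusted p = 0.0280), so that reads of the gene remained. The deletion removes an exon rather than the whole gene, so FPKM of the gene cannot tell transcript of a deleted allele from intact transcript. The stem cell markers Lgr5, Olfm4, Ascl2, Smoc2, Axin2, Slc12a2, Sox9 and Tnfrsf19 were all detected, with 0 of 8 called. In 6 of the 8, Lgr5, Axin2 and Slc12a2 among them (log2 fold changes 0.40, 0.43 and 0.44), both Lgr5-CREPTKO libraries lay above both Lgr5-WT libraries, against 25.6% of all genes tested. Over the 8 the median was 0.24, with summed levels of 6198 to 6422 FPKM against 5719 to 5932. Markers of secretory lineages other than Paneth cells lay below. In both Lgr5-CREPTKO libraries 9 of 10 enteroendocrine markers lay below both Lgr5-WT libraries, against 31.0% of all genes tested. Their summed levels were 72.8 to 82.6 FPKM against 220 to 317. Of the 10, 5 were called lower (Chgb, Ghrl, Cck, Tac1 and Neurod1), against 2.67% of all genes tested, and the median log2 fold change was -1.41. Of the goblet markers 6 of 7 lay below in both libraries, with sums of 802 to 936 against 1465 to 2441, and 1 was called (Spink4). All 4 tuft markers tested lay below as well, with 0 called and sums of 5.74 to 14.1 FPKM against 16.8 to 33.1. Gnat3, also on the tuft list, was not a row of the table. Paneth markers overlapped in 6 of 6 (median 0.30) and enterocyte markers in 6 of 7 (median -0.08). The 2 Lgr5-CREPTKO libraries differed from each other in both lists. Paneth markers summed to 1394 and 1005 FPKM in Lgr5-WT cells and to 830 and 2445 in Lgr5-CREPTKO cells. Enterocyte markers summed to 445 and 558 against 313 and 545 FPKM. The part of these cells in the differences of the factor genes was not tested. Stromal and endothelial markers summed to 0.36 FPKM at most. Immune markers summed to 4.08 and 5.97 FPKM in Lgr5-WT cells and to 1.80 and 6.38 in Lgr5-CREPTKO cells, with 0 of the 4 tested called. Markers of cycling cells summed to 182 and 175 against 200 and 164 FPKM, with 0 of 4 called.

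Taken as a whole, the 59 genes had similar summed levels in the 2 genotypes. They summed to 16417 and 16148 FPKM in Lgr5-WT cells and to 16269 and 16413 in Lgr5-CREPTKO cells. As a percentage of all FPKM in a library these sums were 3.31 and 3.23 in Lgr5-WT cells and 3.47 and 3.47 in Lgr5-CREPTKO cells. The sums overlapped between genotypes while the shares did not, since the total of the table was smaller in Lgr5-CREPTKO cells (468830 and 473662 FPKM, against 495758 and 499327). Single genes ranged from below 1 FPKM to 7719 FPKM, as the plot of levels by library shows. Eef1a1 alone held 1.56% and 1.47% of all FPKM in Lgr5-WT cells and 1.60% and 1.60% in Lgr5-CREPTKO cells. The sums therefore say little of the genes of lower level.

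**Figure D2:**
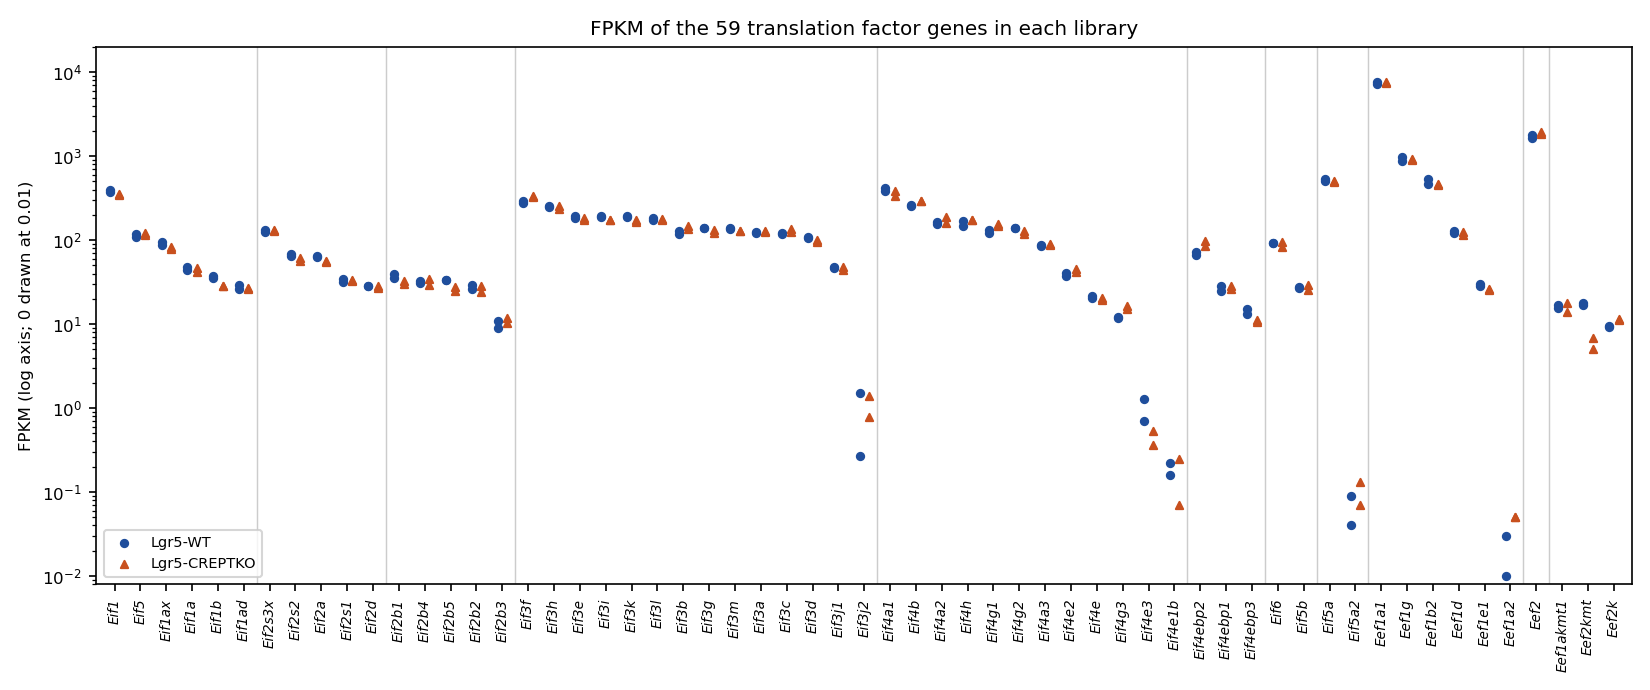
FPKM of the 59 translation factor genes in each of the 4 libraries on a log axis, in blocks by factor group and ordered within a block by mean level; circles are Lgr5-WT and triangles Lgr5-CREPTKO. Eef1a1 is highest at 7329 to 7719 FPKM, the eIF3 subunits other than Eif3j1 and Eif3j2 lie between 94.4 and 333 FPKM, and Eef2kmt, at 16.7 and 17.7 against 4.99 and 6.77 FPKM, has its circles and triangles farthest apart among genes above 2 FPKM.

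Eef2kmt (formerly Fam86a) trimethylates a lysine of eEF2. It measured 17.7 and 16.7 FPKM in Lgr5-WT cells and 4.99 and 6.77 FPKM in Lgr5-CREPTKO cells, or 17.2 ± 0.672 against 5.88 ± 1.26 (mean ± SD, n = 2 each). The genotypes were far apart, and the difference was several times the spread within either. Its log2 fold change was -1.49 (SE 0.156, limma adjusted p = 0.0319), which also passed the study's threshold of a log2 fold change beyond 1, as did 1.01% of all genes on the lower side and 0.127% on the higher. It was of a size close to that of Rprd1b itself. The call was lost with no filter on low values (adjusted p = 0.123), without limma's intensity trend (adjusted p = 0.0657) and when any library was left out (adjusted p from 0.144 to 0.305, with log2 fold changes from -1.69 to -1.28), settings under which at most 4 genes of the whole table were called.

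The Eef2kmt gene lies on the minus strand of chromosome 16 at 5244155-5255956 (GRCm38.p6). Its 3′ end overlaps that of Alg1, a mannosyltransferase gene on the plus strand, by 755 bases, and 25.1% of the 50-base words of its transcripts also occur in Alg1 on the reverse strand. Whether the library kept strand was not given in the sources used here, so reads in the overlap cannot be assigned with certainty. Alg1 measured 11.4 and 11.2 FPKM in Lgr5-WT cells and 13.1 and 11.03 in Lgr5-CREPTKO cells (log2 fold change 0.09, limma adjusted p = 0.682), with the genotypes overlapping. A long noncoding gene, Gm15983, lies 7 bases from the annotated start of Eef2kmt and is not a row of the table used here.

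The 250 bases before the annotated start are shown for Eef2kmt, the gene called, and for Eef2, whose product it modifies, and Eif4g1, since the promoters of the factor genes can be read for shared letters. The sequences are from RefSeq (GRCm38.p6) and run 5′ to 3′ toward the start, and capitals mark an E-box (CACGTG) or a TATA box (TATAAA). They lie at chr16:5255957-5256206 on the minus strand, chr10:81176381-81176630 on the plus strand and chr16:20672477-20672726 on the plus strand.
Eef2kmt: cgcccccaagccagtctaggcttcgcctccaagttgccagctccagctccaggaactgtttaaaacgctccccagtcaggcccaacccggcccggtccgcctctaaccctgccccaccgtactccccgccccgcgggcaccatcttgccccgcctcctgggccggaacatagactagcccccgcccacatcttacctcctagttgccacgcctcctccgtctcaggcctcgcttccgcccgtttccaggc
Eef2: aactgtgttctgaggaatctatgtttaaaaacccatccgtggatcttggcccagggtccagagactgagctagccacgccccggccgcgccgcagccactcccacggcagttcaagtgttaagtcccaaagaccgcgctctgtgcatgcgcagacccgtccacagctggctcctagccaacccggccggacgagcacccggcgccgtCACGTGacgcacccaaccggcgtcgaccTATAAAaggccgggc
Eif4g1: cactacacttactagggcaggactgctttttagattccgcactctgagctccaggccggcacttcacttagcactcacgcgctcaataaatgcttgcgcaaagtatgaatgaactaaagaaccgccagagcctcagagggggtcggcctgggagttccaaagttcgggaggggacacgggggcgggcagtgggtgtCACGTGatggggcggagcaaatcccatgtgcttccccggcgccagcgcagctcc
In the Eef2kmt sequence none of the searched motifs was found, while Eef2 has an E-box that begins 43 bases before the start and a TATA box at 15 bases, and Eif4g1 has an E-box at 54 bases.

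A promoter of this length was listed for 44 of the 59 genes. The E-box, searched on both strands, which for this palindrome is the same string, was in the promoter of 11 of the 44 (25.0%), beside 6.86% of all 27025 genes listed and 9.93% of the 9498 listed genes that were tested here. These were Eef2, Eef2k, Eif1b, Eif3f, Eif3k, Eif4a1, Eif4e, Eif4g1, Eif4h, Eif5a and Eif5a2, of which the 10 tested lay on both sides of zero. An ETS-type motif (CCGGAAGT, or ACTTCCGG on the other strand) was in 5 of the 44 (11.4%, beside 6.93% of listed genes tested), a TATA box in 4 (9.09%, beside 8.03%) and the cyclic AMP response element TGACGTCA in 0 (beside 3.16%). These are matches of letters in a window and were not tested.

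Of the start codon selection genes, Eif1b showed the largest difference and none passed the threshold. Eif1, which guards the fidelity of AUG choice, measured 401 and 375 FPKM in Lgr5-WT cells and 346 and 357 in Lgr5-CREPTKO cells (log2 fold change -0.14). Eif1b, its paralog, was lower in level and in the Lgr5-CREPTKO libraries, with 35.2 and 37.3 FPKM against 28.7 and 28.2 (log2 fold change -0.34, SE 0.07, limma adjusted p = 0.0760). The pair shared no 50-base word. Eif5, the GTPase activator of eIF2, measured 119 and 108 FPKM against 123 and 114, with overlap, as did Eif1ad at 26.0 to 28.9 FPKM.

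The eIF1A proteins, which work beside eIF1 in scanning, are encoded by Eif1a and Eif1ax. Eif1ax was the higher of them, at 95.9 and 86.9 FPKM in Lgr5-WT cells and 78.7 and 82.8 in Lgr5-CREPTKO cells, with no overlap but an adjusted p of 0.260 by limma. Eif1a overlapped (48.3 and 44.4 against 41.6 and 47.0 FPKM). In all, 5 of 6 genes of the group lay below 0, with a median of -0.10, which was -0.03 with libraries rescaled to the same total. Eif1ad was placed in this group by its name, and its role was not examined.

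The eIF2 subunits bind the initiator tRNA and are the target of the stress kinases. Their 95% intervals of the log2 fold change lay within 0.5 of zero. Eif2s3x, the gamma subunit, measured 133 and 125 FPKM in Lgr5-WT cells and 133 and 130 in Lgr5-CREPTKO cells. Eif2s1, the alpha subunit that carries the regulatory serine, measured 34.3 and 31.9 against 33.0 and 33.4 FPKM, and its log2 fold change of 0.00 had a 95% interval of -0.19 to 0.20. For Eif2s2, the beta subunit, the values were 64.9 and 69.0 against 56.1 and 61.4 FPKM, without overlap (log2 fold change -0.19, limma adjusted p = 0.237).

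Eif2a and Eif2d encode alternative carriers of initiator tRNA that do not need eIF2. Eif2a had tight replicates, 63.5 and 64.4 FPKM in Lgr5-WT cells and 55.3 and 55.9 in Lgr5-CREPTKO cells, and a log2 fold change of -0.20 that did not pass (limma adjusted p = 0.152). Eif2d measured 28.2 and 28.4 against 26.6 and 28.1 FPKM. The 5 genes of this group kept the same order of level in both genotypes. The Y-linked copy of the gamma subunit, Eif2s3y, was not a row of the table, and the Y-linked gene Ddx3y was at 0.02 FPKM or less in all 4 libraries. Xist, an RNA of female cells, stood at 100 and 93.7 FPKM in Lgr5-WT cells and at 169 and 125 in Lgr5-CREPTKO cells. By these genes all 4 libraries read as female.

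Of eIF2B, the nucleotide exchange factor of eIF2, the catalytic epsilon subunit differed most. Eif2b5 measured 33.8 and 33.8 FPKM in Lgr5-WT cells and 24.5 and 27.5 in Lgr5-CREPTKO cells, 77.0% of the Lgr5-WT mean, with a log2 fold change of -0.37 (SE 0.09, limma adjusted p = 0.0878). Eif2b1, the alpha subunit of the regulatory part, measured 39.6 and 35.4 against 32.3 and 29.9 FPKM (-0.27, limma adjusted p = 0.169). In both genes every Lgr5-CREPTKO library lay below every Lgr5-WT library, and neither passed the threshold.

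The other eIF2B subunits overlapped between genotypes. Eif2b4 stood at 32.3 and 31.1 FPKM in Lgr5-WT cells and 29.1 and 34.7 in Lgr5-CREPTKO cells. Eif2b3, the lowest of the complex, stood at 10.8 and 9.05 against 10.4 and 11.8 FPKM. Eif2b2 ranged from 24.4 to 29.6 FPKM. The order of levels within eIF2B was the least alike between genotypes among the 6 groups with at least 5 genes tested (Spearman's rho of the genotype means 0.50 over 5 genes, against 1 between the Lgr5-WT libraries), a description over genes that share libraries. The 2 Lgr5-CREPTKO libraries also differed from each other in this order. Eif2b1 stood above Eif2b4 and Eif2b5 above Eif2b2 in mouse 1, and both pairs were reversed in mouse 2.

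The eIF3 complex, the large scaffold on the small subunit, was represented by 14 genes, none of them called. Its summed level was 2082 and 2101 FPKM in Lgr5-WT cells and 2073 and 2080 in Lgr5-CREPTKO cells. Eif3f, the highest, measured 275 and 296 FPKM against 323 and 333 (log2 fold change 0.20, limma adjusted p = 0.190), and Eif3h 251 and 257 against 256 and 238. Eif3f and Eif3h form a pair within the complex, and only the values of Eif3f kept the genotypes apart.

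Subunits of eIF3 lay on both sides. Eif3k measured 191 and 193 FPKM in Lgr5-WT cells and 174 and 163 in Lgr5-CREPTKO cells (log2 fold change -0.19, limma adjusted p = 0.194). Eif3d, which can itself bind the cap, and Eif3g, Eif3i and Eif3m lay below in both Lgr5-CREPTKO libraries too, with log2 fold changes of -0.14 to -0.08. The subunits Eif3a, Eif3b and Eif3c, the largest subunits, lay above in both (0.04, 0.20 and 0.12), and Eif3e and Eif3l overlapped (-0.07 and -0.03). Of the 14 genes 9 were below 0 and 5 above, with a median of -0.04 that became 0.04 with libraries rescaled to the same total.

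Eif3j encodes a loosely bound subunit and has 2 copies in mouse. Eif3j1 measured 47.6 and 46.8 FPKM in Lgr5-WT cells and 44.0 and 48.0 in Lgr5-CREPTKO cells. Eif3j2 was near the filter, at 0.27 and 1.52 against 1.40 and 0.78 FPKM, and its difference is not interpretable on its own because 90.8% of its 50-base words also occur in Eif3j1.

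The eIF4 group, which recognises the cap and unwinds the leader, was the group with the highest median log2 fold change among those of 5 genes or more, at 0.13 over 11 genes (0.05 to 0.08 when a library was left out, 0.21 with libraries rescaled to the same total). In 6 of the 11 both Lgr5-CREPTKO libraries lay above both Lgr5-WT libraries and in 2 below, against 25.6% and 31.0% of all genes tested. No gene of the group passed the threshold. The differences were split between paralogs of the scaffold, the helicase and the cap-binding protein.

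Among the eIF4G scaffolds, Eif4g1 and Eif4g3, which bind eIF4E, lay above, and Eif4g2, which lacks the eIF4E site and serves cap-independent initiation, lay below. Eif4g1 measured 131 and 120 FPKM in Lgr5-WT cells and 155 and 149 in Lgr5-CREPTKO cells (log2 fold change 0.28, SE 0.08, limma adjusted p = 0.115). Eif4g3 measured 12.3 and 11.8 against 15.0 and 16.6 FPKM (0.38, SE 0.09, limma adjusted p = 0.0982). Eif4g2 measured 142 and 139 against 119 and 127 FPKM (-0.19, SE 0.07, limma adjusted p = 0.190). In each of these genes the genotypes did not overlap, and none passed the threshold. The paralogs shared no 50-base word, so that their reads could be told apart.

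Of the eIF4A helicases, Eif4a1 was the most abundant, at 422 and 385 FPKM in Lgr5-WT cells and 386 and 338 in Lgr5-CREPTKO cells. Eif4a2 measured 166 and 155 against 191 and 161 FPKM, and Eif4a3, a part of the exon junction complex rather than of eIF4F, 87.4 and 84.9 against 88.0 and 89.0 FPKM. Their log2 fold changes were -0.16, 0.13 and 0.04, and Eif4a1 shares 65.3% of its 50-base words with other genes, Eif4a-ps4 foremost. Eif4b, the cofactor of the helicase, had 253 and 265 FPKM against 294 and 293 (0.18, limma adjusted p = 0.190). Eif4h, a related cofactor, had 146 and 171 FPKM against 175 and 172 (0.14). Leaving out a library moved the log2 fold change of Eif4h between 0.025 and 0.25 and that of Eif4a2 between 0.0038 and 0.25.

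The cap-binding genes were lower in FPKM than the scaffold genes Eif4g1 and Eif4g2. Eif4e measured 21.9 and 20.5 FPKM in Lgr5-WT cells and 20.7 and 19.5 in Lgr5-CREPTKO cells, with overlap (95% interval of the log2 fold change -0.29 to 0.14). Eif4e2, a repressive cap-binding homologue, measured 37.8 and 40.6 against 41.2 and 45.4 FPKM. Eif4e3, at 0.70 and 1.28 against 0.36 and 0.53 FPKM, had the largest difference after Eef2kmt (log2 fold change -0.63), but its interval of -1.41 to 0.14 takes in zero (limma adjusted p = 0.269). Eif4e1b, the oocyte form, was at 0.16 and 0.22 against 0.07 and 0.25 FPKM and was not tested.

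The 4E-BPs, which compete with eIF4G for eIF4E, lay on both sides of zero. Eif4ebp2 measured 66.3 and 71.5 FPKM in Lgr5-WT cells and 97.5 and 85.8 in Lgr5-CREPTKO cells, 133% of the Lgr5-WT mean. Its log2 fold change of 0.41 (SE 0.09) was the largest above 0 of any factor gene, yet its limma adjusted p was 0.0846. Eif4ebp3 measured 13.1 and 15.1 against 11.2 and 10.6 FPKM (-0.36, limma adjusted p = 0.127), and Eif4ebp1 24.7 and 28.5 against 28.7 and 26.2 FPKM. Eif4ebp2 was the most abundant 4E-BP gene in every library. For Eif4ebp3, 65.5% of the 50-base words are shared with another annotated gene, a transcript that reads through it.

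Subunit joining and eIF6, which keeps the large subunit apart, did not separate the genotypes. Eif5b measured 27.4 and 27.3 FPKM in Lgr5-WT cells and 25.6 and 29.1 in Lgr5-CREPTKO cells, and Eif6 91.3 and 93.2 against 83.7 and 95.6 FPKM. Eif5a, the hypusine-bearing factor that helps stalled ribosomes, measured 512 and 532 against 496 and 508 FPKM, a log2 fold change of -0.06 with an interval of -0.24 to 0.13. Its paralog Eif5a2 was at 0.04 to 0.13 FPKM and was not tested.

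In the elongation groups the levels were the highest of the set and no gene was called. Eef1a1, the carrier of aminoacyl-tRNA, was the gene with the highest FPKM of the whole table in all 4 libraries, with 7719 and 7329 FPKM in Lgr5-WT cells and 7484 and 7568 in Lgr5-CREPTKO cells. Its log2 fold change was 0.00 with a 95% interval of -0.26 to 0.26, and 52.4% of its 50-base words are shared with other genes, pseudogene copies among them. Eef1a2, the muscle and neuron form, was at 0.05 FPKM or less in every library.

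The eEF1B exchange subunits also overlapped, with Eef1g at 872 and 976 FPKM against 909 and 936, Eef1b2 at 540 and 466 against 473 and 455, and Eef1d at 121 and 127 against 116 and 125. Eef1e1, which belongs to the multisynthetase complex, was the exception, at 28.1 and 30.3 against 25.9 and 25.2 FPKM (log2 fold change -0.19, limma adjusted p = 0.225). Eef2, the translocase, measured 1662 and 1779 FPKM in Lgr5-WT cells and 1859 and 1926 in Lgr5-CREPTKO cells. The genotypes did not overlap for Eef2, but a log2 fold change of 0.14 did not pass (limma adjusted p = 0.388).

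The genes that modify elongation factors were low in level and held the single call, Eef2kmt. Eef2k, the kinase that inactivates eEF2, measured 9.38 and 9.34 FPKM in Lgr5-WT cells and 11.3 and 11.5 in Lgr5-CREPTKO cells (log2 fold change 0.27, SE 0.09, limma adjusted p = 0.145). Eef1akmt1, a lysine methyltransferase of eEF1A, measured 15.5 and 16.8 against 13.98 and 17.7 FPKM. The methyltransferase gene was below in both Lgr5-CREPTKO libraries, as were 31.0% of all genes tested. The kinase gene Eef2k and the substrate gene Eef2, neither of them called, were above in both, as were 25.6% of all genes. With the length and GC correction described below, their log2 fold changes were 0.11 and 0.099. No shared pattern of these genes was tested.

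**Figure D3:**
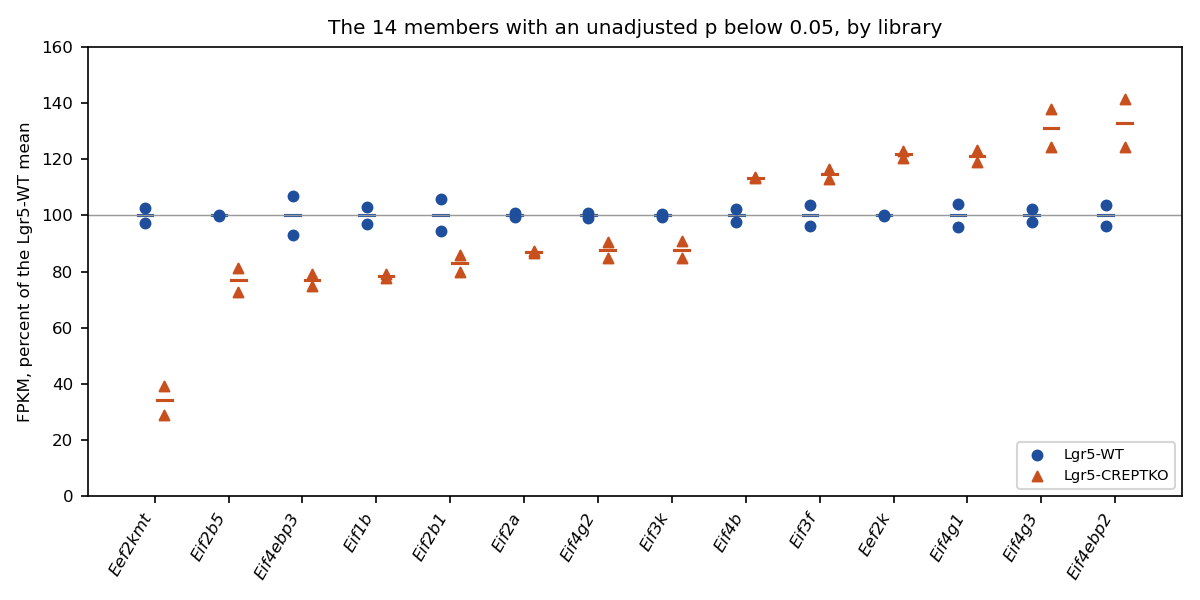
FPKM as a percentage of the Lgr5-WT mean for the 14 factor genes with an unadjusted limma p below 0.05; circles are the 2 Lgr5-WT libraries, triangles the 2 Lgr5-CREPTKO libraries and short lines their means. The Lgr5-CREPTKO mean of Eef2kmt lies at 34.2% while those of the other 13 lie between 77.0% and 133%, and only Eef2kmt passed after adjustment over all genes.

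Other genes of the pathway were read from lists that name the partners of the factors. Of the 9 genes of the eIF2 kinases and their counterparts 0 were called. The kinase genes Eif2ak1, Eif2ak2, Eif2ak3 and Eif2ak4 had log2 fold changes between -0.09 and 0.15. The largest differences of the list were those of Gcn1l1 (0.44, limma adjusted p = 0.0800), Abcf1 (-0.29) and Impact (-0.26). Of 9 genes that place hypusine on eIF5A or diphthamide on eEF2, which are the other modifications of these factors, 0 were called, and Dhps, the deoxyhypusine synthase, had the largest value (12.3 and 12.5 FPKM against 9.20 and 10.5, log2 fold change -0.32, limma adjusted p = 0.145). The 22 cytosolic aminoacyl-tRNA synthetases held 0 calls with a median of 0.03, and the 15 poly(A)-binding and cap regulators held 0 calls with a median of 0.08.

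Of the 96 partner genes tested 3 (3.12%) were called lower and 0 higher, near the 2.67% and 0.412% of all genes. Of the 12 mTORC1 genes, which control the 4E-BPs, Mlst8, a core subunit, was called. It measured 17.2 and 18.3 FPKM against 11.2 and 11.2 (log2 fold change -0.64, limma adjusted p = 0.0376). Rps6kb2 had the largest difference of the list, uncalled, at 10.8 and 10.9 FPKM against 5.31 and 7.21 (-0.76, limma adjusted p = 0.0727). Mtor itself stood at 9.03 and 7.96 against 11.8 and 11.7 (0.45, limma adjusted p = 0.0847). In 5 of the 12 both Lgr5-CREPTKO libraries lay below both Lgr5-WT libraries and in 5 above, against 31.0% and 25.6% of all genes. Of the 9 termination and recycling genes Mcts2 was called, at 8.94 and 8.66 FPKM against 5.58 and 5.53 (-0.62, limma adjusted p = 0.0478). Mcts2 is a near copy of Mcts1, so that their reads may be shared, and Mcts1 stood at 32.5 and 32.2 against 24.5 and 25.8 FPKM (-0.36, limma adjusted p = 0.0727). Of 20 ATF4 targets tested, the genes induced when eIF2 is phosphorylated, Pck2 was called (-0.63, limma adjusted p = 0.0472), and 10 lay below 0 and 10 above. With any library left out no gene of the table was called, these included.

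The differences of the factor genes went with transcript length. Over the 56 genes Spearman's rho between log2 fold change and annotated transcript length was 0.47, beside 0.36 over the 12185 genes tested that have a length and 0.47 over the 6686 of these with at least 10 FPKM, a description across genes of the same 4 libraries. The factor genes with both Lgr5-CREPTKO libraries below had a median length of 2013 bases, and those with both above one of 3473 bases, beside 2208 and 4209 bases for all genes. The trend was in each Lgr5-CREPTKO library set against the Lgr5-WT mean (0.39 and 0.28 over all genes) and was smaller in size between the libraries of 1 genotype (-0.11 for Lgr5-WT and -0.15 for Lgr5-CREPTKO, mouse 2 minus mouse 1, so that the sign has no meaning). Whether length itself is behind a gene's value was not tested.

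With length and GC content of the transcripts removed from each library by a smooth curve, an analysis added after seeing the data, Eef2kmt kept its call (log2 fold change -1.43, limma adjusted p = 0.0415). The gap of the long scaffold and regulator genes narrowed, with log2 fold changes of 0.11 for Eif4g1, 0.15 for Eif4g3, 0.25 for Eif4ebp2 and 0.11 for Eef2k. The short Eif4ebp3 came to -0.11. The curve takes out the length trend by construction, so that a fall of long genes and a rise of short ones follow from it. Of the 56 genes, 16 turned sign, 7 of them subunits of eIF3 (Eif3e, Eif3g, Eif3h, Eif3i, Eif3k, Eif3l and Eif3m). The value of Eif2b5 was hardly altered (-0.34), that of Eif1b came to -0.14, and that of Eif4g2 widened to -0.31. No other factor gene was called under this correction.

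**Figure D4:**
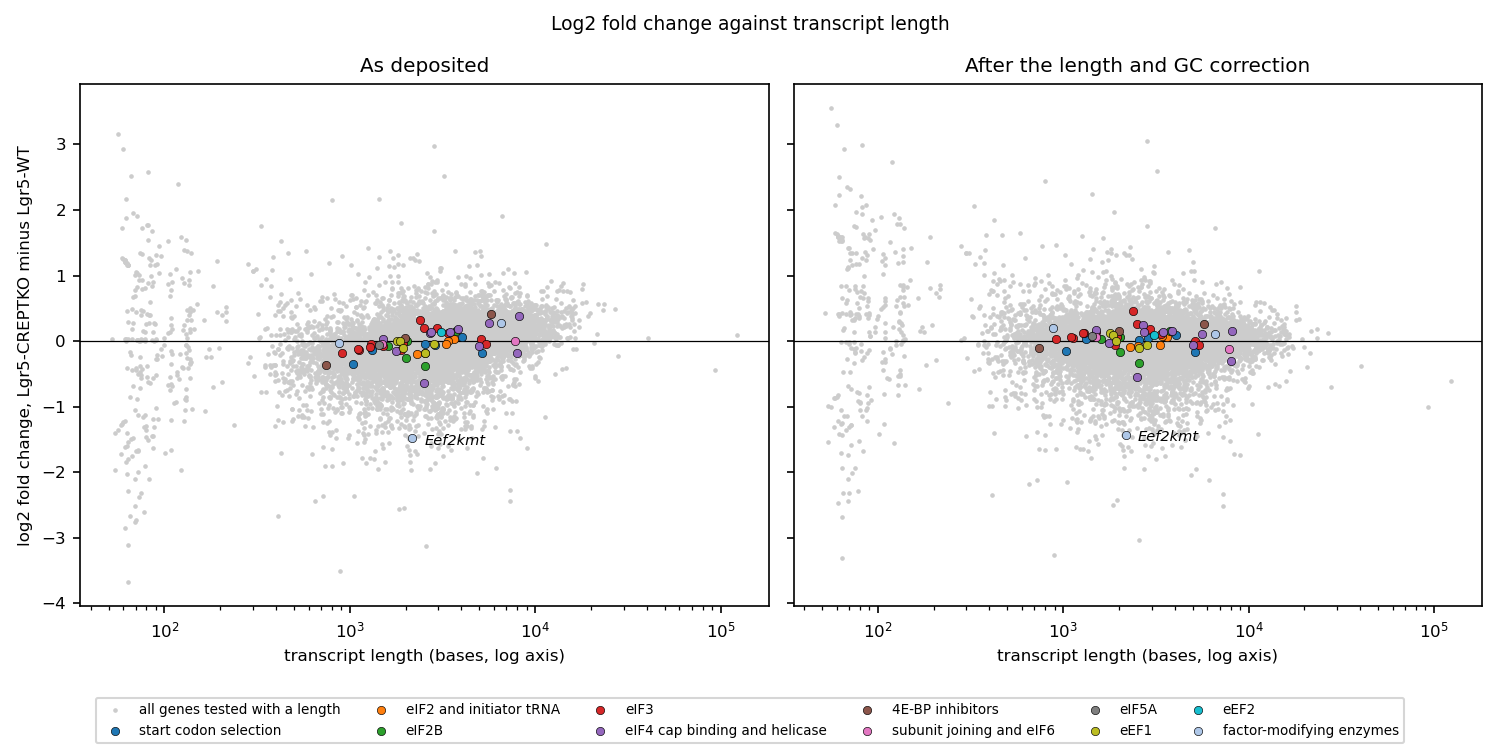
Log2 fold change (Lgr5-CREPTKO minus Lgr5-WT) against annotated transcript length in bases on a log axis, for all 12185 genes tested with a length (grey) and the 56 factor genes (coloured by group), as deposited on the left and after the correction for length and GC content on the right. The rise with length on the left (Spearman's rho 0.36 over all genes) is gone by construction on the right, and Eef2kmt stays low in both panels.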

How the data were processed

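RNA from sorted Lgr5-GFP high cells was sequenced on BGISEQ from 2 mice of each genotype, and the 4 columns of the table were assigned by their names, which match the sample titles. The authors deposited FPKM values per gene symbol, made with Bowtie2 and RSEM on GRCm38.p6 (per the paper's methods; the submitters' processing notes also name HISAT and mm10). FPKM are scaled by transcript length and library total, so read depth is unknown here, counts were not used, and each value is relative to its library. The FPKM totals differed between libraries, so a value is not itself a share of its library. The study used a model of read counts. Since the table holds none, limma 3.58.1 in R 4.3.3 was fitted with an intensity trend to log2(FPKM + 0.5) for the 12621 of 18436 genes averaging 0.5 FPKM or more, which understates changes of low genes. The labels do not tell technical from biological replicates, but the study names 2 mice per genotype. Same-numbered mice are different animals, and their deviations from the genotype means did not go together (correlation -0.03). With 2 against 2 an exact permutation test cannot go below p = 0.333.

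The factor genes, their groups and the partner and marker lists were chosen with earlier results of these data known, so no list was tested. Values were given for called genes, for the 2 highest genes and the largest difference in each direction per group, and for paralogs, and the other genes named were chosen after their values were seen. All 59 symbols matched RefSeq. Transcript length, GC content and shared 50-base words were read from GENCODE M21 (same assembly), and promoters from RefSeq. The fit was tested on simulated data. Pseudocount, filter, scaling, trend, replicate block, small RNA genes, single libraries and the study's threshold were varied.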

Additional observations from a re-analysis of the deposited data

How the results depend on the processing

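Each factor gene was refitted under up to 15 alternatives, and 28 of the 56 kept the sign of their log2 fold change in all those run, while 28, all of them uncalled, turned sign in at least 1. Eef2kmt was lower throughout, with its call as given above. Over all genes tested, 337 were called lower and 52 higher, against 0 and 0 with no filter on low values, 4 and 0 without the trend, 168 and 15 with the replicate block, 508 and 115 without small RNA genes, 180 and 23 with the length and GC correction, 128 and 16 at the study's threshold, and 0 and 0 whichever library was left out. Higher calls were 91 with a filter of 2 FPKM and 85 at the same total per library. The call of Eef2kmt made up the count of 1 lower factor gene, which was 0 with no filter, without the trend and without any of the 4 libraries, and the replicate block changed no call of a factor gene (adjusted p = 0.0412 for Eef2kmt by limma). Scaling every library to the same total shifted the all-gene median to 0.06 (log2) and that of the factor genes to 0.037, with group medians of -0.026 for start codon selection, 0.029 for eIF2, 0.039 for eIF3, 0.21 for eIF4, 0.036 for eEF1. Under it these genes turned above 0: Eef1g 0.078, Eif5a 0.022, Eif3h 0.038, Eif3e 0.0104, Eif3l 0.045, Eef1d 0.036, Eif6 0.033, Eif1a 0.0123, Eif3j1 0.039, Eif1ad 0.037, Eif2d 0.029, Eif5b 0.076, Eif4e 0.00045, Eef1akmt1 0.041. Centring on the library median gave -0.015 for the factor genes and -0.014 for eIF3, 0.15 for eIF4, -0.017 for eEF1, with Eef1g 0.025, Eif5b 0.023 turned. With no filter the eIF4 median was 0.083. The length and GC correction, chosen after seeing the data, gave 0.0616 for the factor genes and 0.017 for start codon selection, 0.034 for eIF2B, 0.0905 for eIF3, 0.14 for eIF4, 0.00591 for eEF1, and turned Eef1g 0.10, Eef1b2 0.00591, Eif5a 0.079, Eif1 0.025, Eif3h 0.13, Eif3e 0.14, Eif3k 0.033, Eif3i 0.052, Eif3l 0.0597, Eif3g 0.066, Eif3m 0.12, Eif6 0.0638, Eif1a 0.046, Eif1ad 0.00906, Eif2b2 0.034, Eef1akmt1 0.20. With a library left out the median of the factor genes ran from -0.068 to 0.00584 and the group medians were start codon selection -0.16 to -0.049, eIF2 -0.086 to -0.012, eIF2B -0.18 to 0.022, eIF3 -0.059 to -0.021, eIF4 0.047 to 0.075, eEF1 -0.085 to 0.00785. The genes that turned sign then ranged as Eef1g -0.082 to 0.081, Eif3h -0.094 to 0.0134, Eef1d -0.092 to 0.00785, Eif6 -0.14 to 0.051, Eif1a -0.15 to 0.023, Eif3j1 -0.10 to 0.024, Eif1ad -0.12 to 0.035, Eif5b -0.093 to 0.0885, Eef1akmt1 -0.20 to 0.13, Eif4ebp1 -0.056 to 0.15, Eif3j2 -0.37 to 1.02, Eef1a1 -0.037 to 0.038, Eif2s3x -0.012 to 0.075, Eif5 -0.011 to 0.13, Eif2s1 -0.047 to 0.055, Eif2b4 -0.12 to 0.13, Eif2b2 -0.18 to 0.022. The causes were not tested. With 2 mice per genotype and no counts, changes smaller than the intervals given could not be told from 0, and the lone sample of a genotype was taken to vary like the rest.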
